A study of Mus musculus with 6 samples.

Results

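The collagen genes of mouse muscle were taken as every protein-coding row of the count table whose symbol starts with Col, a number, a and a number. The rule found 45 of 22027 protein-coding genes, and 44 of these are collagens. The remaining gene, Col4a3bp, encodes a ceramide transfer protein named for binding a collagen chain and was set aside (log2 fold change 0.07, adjusted p = 0.745). The collagens were split by type into 11 fibrillar genes (types I, II, III, V, XI, XXIV and XXVII), 6 basement membrane genes (type IV) and 27 other genes.

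Collagens are trimers of chains wound into a triple helix, and each chain has its own gene. In skeletal muscle, fibril-forming collagens made mainly by fibroblasts fill the sheaths around fibres, bundles and whole muscles. Type IV collagen forms the sheet-like network of the basement membrane that surrounds each fibre and each capillary, and type VI collagen forms beaded microfilaments that link the basement membrane to the fibrils. Tendon, cartilage and bone also make fibrillar collagens, so tissue taken along with a muscle can contribute to their RNA.

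RNA was sequenced from the muscle of 3 Tarsl2+/+ and 3 Tarsl2-/- male mice, 6 weeks old and fed a standard diet, with 1 library per mouse. The sample records name the strain C57BL/6, and the line was made in and crossed with C57BL/6J per the methods. The Tarsl2-/- mice carry a CRISPR/Cas9 deletion of a genomic fragment with exon 3 of Tarsl2, which encodes a threonyl-tRNA synthetase-like protein. Their mouse numbers are 583, 584 and 595 (Tarsl2+/+) and 588, 589 and 591 (Tarsl2-/-), and values for single mice are given in that order. The sources used here do not name the muscle that was taken, and litters are not given.

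The libraries held 16176591 to 20123767 counts, so that 3 counts correspond to 0.146 to 0.187 CPM, the counts scaled to a common library size after TMM adjustment for composition. The targeted gene Tarsl2 was read 456, 605 and 464 times in Tarsl2+/+ muscle and 40, 30 and 37 times in Tarsl2-/- muscle, a log2 fold change (Tarsl2-/- over Tarsl2+/+) of -3.81 ± 0.16 (SE, adjusted p = 6.46e-07). Adjusted p-values are those of the quasi-likelihood test of edgeR, by the Benjamini-Hochberg method over all genes tested, unless another tool is named. The sample records mention an extraction from the retina, whereas the source given for each sample is muscle and the summed level of 9 muscle fibre genes was 58388 to 74166 CPM.

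No collagen gene differed between the genotypes at an adjusted p under 0.05, yet most of them, and the fibrillar genes above all, had lower counts in Tarsl2-/- muscle. Of the 44 collagens, 37 had enough counts to be tested. None of the 37 was called by edgeR, whereas 2.27% of the 15075 genes tested were called, 1.37% lower and 0.896% higher in Tarsl2-/- muscle. At an unadjusted p under 0.05, 15 collagens were lower (40.5% of those tested, against 10.2% of all genes) and 2 were higher (5.41%, against 9.58%), where 19.8% of all genes passed in either direction. Fitted log2 fold changes were below 0 for 27 of 37 collagens (73.0%), where 49.5% of all genes were, and their median was -0.21 against 0.00270 over all genes. In 12 collagens every Tarsl2-/- mouse was below every Tarsl2+/+ mouse (11.9% of all genes), in 1 the order was the opposite (12.6% of all genes), and in 24 the genotypes overlapped.

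DESeq2 called 3 collagens lower, Col1a1, Col1a2 and Col5a2, and 0 higher. Over all genes it called 4.77%, of which 2.71% were lower and 2.06% higher. At an unadjusted p under 0.05 DESeq2 gave 14 collagens lower (8.58% of all genes) and 1 higher (7.49%), where 16.1% of all genes passed in either direction. Limma-voom called 0 collagens, against 2.11% of all genes (1.23% lower and 0.882% higher). At an unadjusted p under 0.05 it gave 14 lower (10.1% of all genes) and 2 higher (9.57%), where 19.6% of all genes passed in either direction. The number with an unadjusted p under 0.05 in edgeR depended on single mice. It was 8 lower of 38 tested (21.1%, against 7.47% of all genes) without Tarsl2+/+ mouse 595 and 16 of 37 (43.2%, against 11.7%) without Tarsl2+/+ mouse 584.

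Summed over the 44 genes, collagen RNA was at 10525, 9594 and 11371 CPM in the Tarsl2+/+ mice and 8939, 8168 and 9213 in the Tarsl2-/- mice. All Tarsl2-/- values lay below all Tarsl2+/+ values, and the means were 10497 ± 889 (SD, n = 3) and 8773 ± 542 (SD, n = 3), a difference of -16.4%. Collagen genes took 0.810% to 1.11% of the counts of a library. In bulk muscle RNA, fewer collagen-producing cells and less collagen RNA per cell cannot be told apart.

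**Figure D1:**
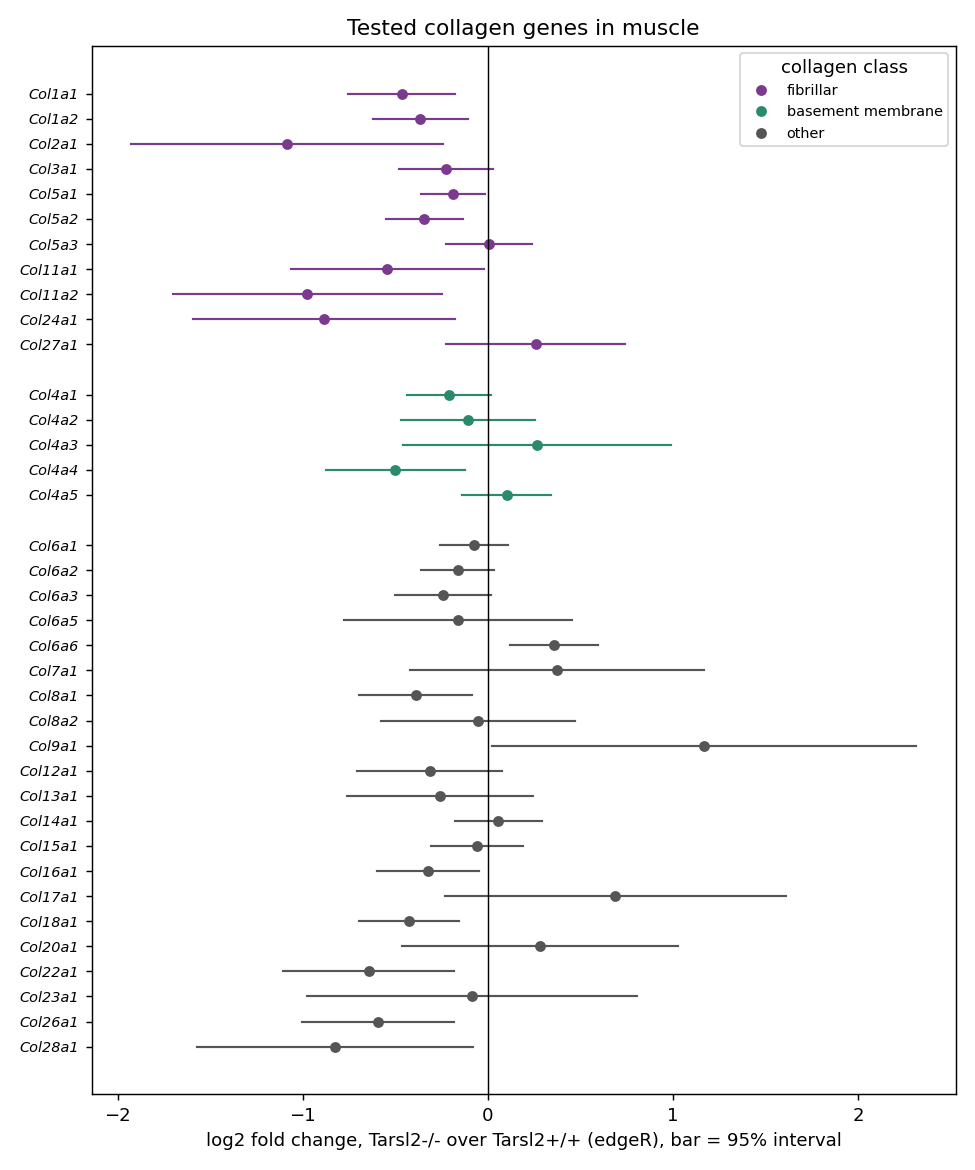
Fitted log2 fold change of each of the 37 tested collagens (horizontal axis, Tarsl2-/- over Tarsl2+/+, edgeR), with bars for the 95% interval and colours for the collagen class. Of the 11 fibrillar genes, 9 lie below 0, beside 3 of 5 basement membrane genes, 15 of 21 other genes and 49.5% of all genes tested.

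The level of the collagens spanned several orders of magnitude, and 3 fibrillar genes stood above all others. Col3a1, the only chain of type III collagen, alone gave 59.3% to 63.6% of the collagen counts of a library. Per kilobase of the principal transcript, its mean level over the 3 Tarsl2+/+ mice was 1142 CPM. Type I collagen followed, with Col1a2 at 311 CPM per kilobase and Col1a1 at 131. Next came Col6a2 at 44.0, Col6a1 at 39.0, Col5a2 at 38.8 and Col6a3 at 38.2 CPM per kilobase. The level of Col4a1 was 26.1 CPM per kilobase, that of Col5a1 16.6 and that of Col14a1 14.8. At the other end, 7 collagens had too few counts to be tested, namely Col4a6, Col6a4, Col9a2, Col9a3, Col10a1, Col19a1 and Col25a1. The highest of their values in any library was 0.743 CPM (Col4a6 in Tarsl2+/+ mouse 584), and Col10a1, a marker of growth plate cartilage, had at most 0.125 CPM, which is under 3 counts. A difference in these 7 genes was not detectable at this depth.

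Among the fibrillar genes, the main chains of types I and V were lower in every Tarsl2-/- mouse, whereas types III and XI overlapped. The median log2 fold change over the 11 genes was -0.37. At an unadjusted p under 0.05, 8 were lower in Tarsl2-/- muscle (72.7%, against 10.2% of all genes). In 6 the genotypes did not overlap, with the Tarsl2-/- mice lower (54.5%, against 11.9% of all genes). Summed, the 11 genes were at 9287, 8407 and 10173 CPM in the Tarsl2+/+ mice and 7851, 7103 and 8118 in the Tarsl2-/- mice, a difference between the means of -17.2% with no overlap. Without Col3a1 the sums were 2796, 2586 and 3428 CPM against 2284, 2239.9 and 2257, a difference of -23.0%. The number with an unadjusted p under 0.05 was 4 of 11 (36.4%) without Tarsl2+/+ mouse 595, against 7.47% of all genes, and also 4 of 11 without Tarsl2-/- mouse 591, against 8.83%. The median was -0.24 without Tarsl2+/+ mouse 595.

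Col1a1 (chromosome 11 of GRCm38, 94936224 to 94953042), the alpha 1 chain of type I collagen, the main collagen of tendon, bone and skin, was at 725, 654 and 943 CPM in the Tarsl2+/+ mice and 530.2, 598 and 552 in the Tarsl2-/- mice. The highest value was that of Tarsl2+/+ mouse 595, and the genotypes did not overlap. Its log2 fold change was -0.47 ± 0.13 (SE, 95% interval -0.75 to -0.18, adjusted p = 0.0848). Its partner Col1a2 (chromosome 6, 4504814 to 4541544), the alpha 2 chain, was at 1572, 1476 and 1948 CPM against 1330.2, 1243 and 1305. The same mouse was highest, again without overlap, and the log2 fold change was -0.37 ± 0.12 (SE, 95% interval -0.62 to -0.11, adjusted p = 0.118). DESeq2 gave adjusted p-values of 0.00940 for Col1a1 and 0.0294 for Col1a2, so for both genes the call depended on the tool. Without Tarsl2+/+ mouse 595 the log2 fold changes were -0.30 for Col1a1 and -0.24 for Col1a2. Without Tarsl2+/+ mouse 584 Col1a1 passed the threshold (log2 fold change -0.57, adjusted p = 0.0292).

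Col3a1 (chromosome 1, 45311538 to 45349706), whose product forms thin fibrils together with type I collagen, was at 6491, 5821 and 6745 CPM in the Tarsl2+/+ mice and 5567, 4863 and 5862 in the Tarsl2-/- mice. Tarsl2+/+ mouse 584 lay below Tarsl2-/- mouse 591, so that the genotypes overlapped. The log2 fold change of -0.23 ± 0.11 (SE, 95% interval -0.48 to 0.03) did not pass the test (adjusted p = 0.307).

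Type V collagen is built into type I fibrils and limits their diameter. Col5a2 (chromosome 1, 45374321 to 45503282) lies 24614 bases from Col3a1 on the opposite strand, the ends of the genes facing each other. It was at 262, 237 and 271 CPM in the Tarsl2+/+ mice and 218, 187 and 202 in the Tarsl2-/- mice, with no overlap. With a log2 fold change of -0.34 ± 0.09 (SE, 95% interval -0.55 to -0.14), it had the smallest adjusted p of the collagens (0.0807, or 0.0211 by DESeq2). Col5a1 (chromosome 2, 27886425 to 28039514) was at 142, 135 and 143 CPM against 124, 121 and 123. These values did not overlap either and varied little within a genotype, and the log2 fold change was -0.19 ± 0.08 (SE, adjusted p = 0.216). Col5a3 (chromosome 9, 20770050 to 20815067), at 45.0, 48.4 and 45.3 CPM against 39.8, 52.8 and 46.7, had a log2 fold change of 0.01 (95% interval -0.23 to 0.24, adjusted p = 0.983) with overlapping genotypes.

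The remaining fibrillar genes were expressed at a lower level, and 3 of them are the chains known from cartilage. Col11a1, which nucleates cartilage fibrils, was at 23.1, 17.2 and 35.7 CPM in the Tarsl2+/+ mice and 21.3, 17.9 and 13.1 in the Tarsl2-/- mice. Col11a2, its partner chain, was at 16.2, 9.97 and 31.7 CPM against 12.1, 9.22 and 8.16. Col2a1, the main cartilage collagen, was at 1.58, 1.59 and 3.93 CPM against 1.28, 0.997 and 1.07. In all 3 genes Tarsl2+/+ mouse 595 had the highest value of the 6 mice, and the genotypes did not overlap only in Col2a1. The log2 fold changes were -0.54, -0.98 and -1.09 (adjusted p = 0.235, 0.137 and 0.150), and without Tarsl2+/+ mouse 595 they were -0.21, -0.41 and -0.50. Without Tarsl2+/+ mouse 584, Col11a2 passed the threshold (log2 fold change -1.29, adjusted p = 0.0215). Of the 2 minor fibrillar collagens, Col24a1 was at 1.15 to 1.64 CPM in the Tarsl2+/+ mice and 0.583 to 0.997 in the Tarsl2-/- mice, with a log2 fold change of -0.89 ± 0.32 (SE, adjusted p = 0.159) and no overlap. Col27a1 showed a log2 fold change of 0.26 (adjusted p = 0.560) and overlapping genotypes.

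**Figure D2:**
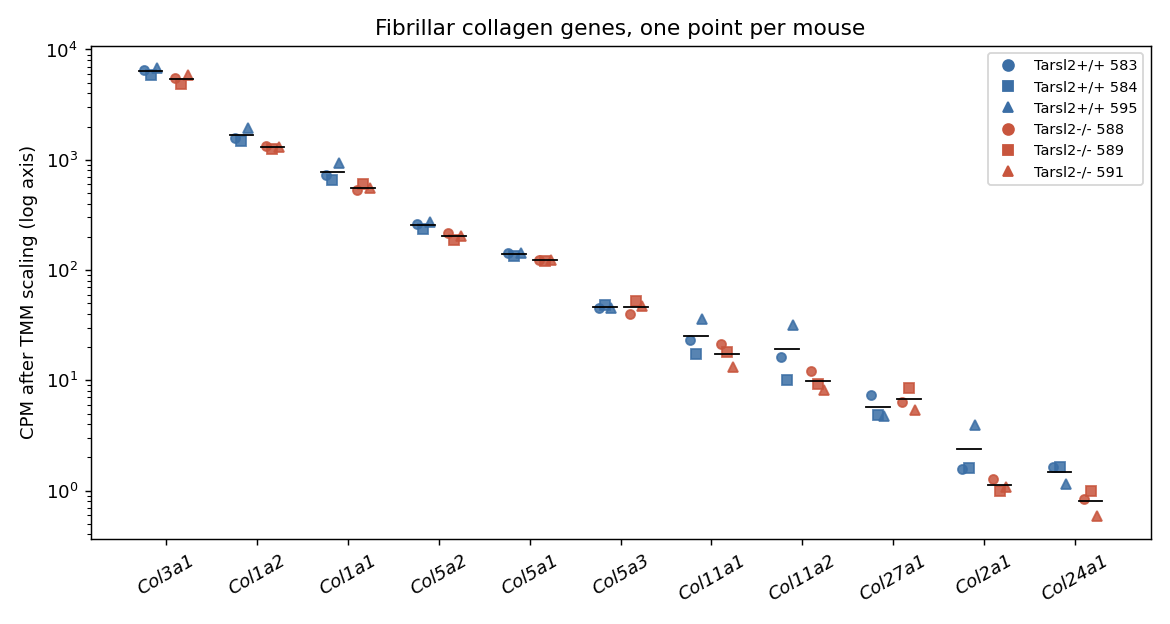
CPM after TMM scaling (log axis) of the 11 fibrillar collagens, ordered by level, with a symbol for each mouse and a bar at the genotype mean. Tarsl2-/- mice lie below all Tarsl2+/+ mice in Col1a1, Col1a2, Col5a1, Col5a2, Col2a1 and Col24a1. Tarsl2+/+ mouse 595 (blue triangle) is the highest in every gene but Col5a3, Col24a1 and Col27a1.

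To show the letters in front of these genes, the 100 bases upstream of the start of the principal transcript are given for 3 fibrillar genes with a RefSeq entry, and for Col6a6, the collagen whose Tarsl2-/- values were all above the Tarsl2+/+ values. The sequences are from RefSeq (GRCm38.p6), 5′ to 3′ on the strand of the gene. Capitals mark the letters GGGCGG or their reverse complement CCGCCC, the core of the GC box bound by Sp1-type factors.
Col1a2, chr6:4505393-4505492, plus strand: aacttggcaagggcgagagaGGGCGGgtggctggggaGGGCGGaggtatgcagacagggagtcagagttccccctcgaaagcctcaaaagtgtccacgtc
Col3a1, chr1:45311438-45311537, plus strand: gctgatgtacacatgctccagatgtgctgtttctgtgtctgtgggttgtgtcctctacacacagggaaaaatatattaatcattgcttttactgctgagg
Col5a1, chr2:27886325-27886424, plus strand: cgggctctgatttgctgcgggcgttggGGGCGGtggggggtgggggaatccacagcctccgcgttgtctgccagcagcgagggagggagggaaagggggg
Col6a6, chr9:105828161-105828260, minus strand: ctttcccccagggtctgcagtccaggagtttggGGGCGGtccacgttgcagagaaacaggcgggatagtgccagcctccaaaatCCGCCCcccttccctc

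The letters GGGCGG stood on either strand in the windows of Col1a2, Col5a1 and Col6a6, and not in that of Col3a1. RefSeq windows of 300 bases around the start were found for 35 of the 44 collagens, 38 windows in all. GGGCGG was present in 23 of the 38 (60.5%), in 6 of 8 fibrillar windows (75.0%), in 4 of 5 type IV windows (80.0%) and in 35.7% of 32851 windows over all genes. CCAAT, the letters of the CCAAT box, was in 34.2% of the collagen windows and in 37.4% of all windows on either strand, and TATAAA, the letters of the TATA box, in 13.2% and 13.6%. None of the 3 strings of letters contains another, and a match describes the letters only.

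In the basement membrane class the median difference was smaller than in the fibrillar class, and the genes did not run together. Of the 6 genes, 5 were tested, and the median log2 fold change was -0.11. The fitted value was below 0 for 3 (60%, against 49.5% of all genes). At an unadjusted p under 0.05, 1 was lower (20%, against 10.2% of all genes). In 2 the genotypes did not overlap, with the Tarsl2-/- mice lower (40%, against 11.9% of all genes). Summed, the 6 genes were at 243, 299 and 244 CPM in the Tarsl2+/+ mice and 236, 248 and 221 in the Tarsl2-/- mice, a difference of -10.2% with overlapping genotypes. The median log2 fold change was 0.045 without Tarsl2+/+ mouse 584, which had the highest sum, and -0.25 without Tarsl2+/+ mouse 595.

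The genes of type IV collagen lie in head-to-head pairs. Col4a1 (chromosome 8, 11198423 to 11312826, minus strand) and Col4a2 (11312805 to 11449287, plus strand) overlap by 22 bases at their starts. Col4a4 and Col4a3 on chromosome 1 are 71 bases apart, and Col4a6 and Col4a5 on the X chromosome 1308 bases. Col4a1, which with Col4a2 makes the common form of the network, was at 160.0, 197 and 161 CPM in the Tarsl2+/+ mice and 149, 158 and 141 in the Tarsl2-/- mice. The genotypes did not overlap, and the log2 fold change of -0.21 ± 0.10 (SE, 95% interval -0.44 to 0.01) did not pass the test (adjusted p = 0.283) and was -0.10 without Tarsl2+/+ mouse 584. Col4a2 was at 45.8, 67.4 and 43.4 CPM against 46.0, 57.2 and 42.2, with Tarsl2+/+ mouse 584 highest, overlapping genotypes and a log2 fold change of -0.11 ± 0.16 (SE, adjusted p = 0.767). Col4a4, a chain of the networks of kidney, lung and eye, was at 5.25 to 6.97 CPM in the Tarsl2+/+ mice and 3.86 to 4.51 in the Tarsl2-/- mice, and its log2 fold change was -0.50 ± 0.17 (SE, adjusted p = 0.138). Its neighbour Col4a3 showed a log2 fold change of 0.26 (adjusted p = 0.708) and Col4a5 of 0.10 (adjusted p = 0.657), both with overlapping genotypes.

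The chains of a trimer were compared within each mouse as ratios of counts per kilobase of the length given in the table. The 5 ratios overlapped between the genotypes, and none differed by an exact permutation test (two-sided), whose smallest possible p with 3 mice per genotype is 0.1. Col1a1 over Col1a2 was 0.876 ± 0.0386 in Tarsl2+/+ muscle against 0.822 ± 0.0809 (SD, n = 3 each) (exact permutation p = 0.3, adjusted over the 5 ratios 0.375). Col4a1 over Col4a2 was 3.00 ± 0.360 against 2.76 ± 0.270 (exact permutation p = 0.4, adjusted 0.4). Col6a1 over Col6a2 was 1.75 ± 0.110 against 1.86 ± 0.0872, and Col6a3 over Col6a1 was 0.788 ± 0.0971 against 0.705 ± 0.110. Col3a1 over Col1a1, a ratio between fibril types, was 5.57 ± 0.684 against 6.52 ± 0.942. Each of these last 3 ratios had an exact permutation p of 0.3 (adjusted 0.375). The level of a ratio depends on the length used. Per kilobase of the principal transcript, Col1a1 over Col1a2 was 0.417 in Tarsl2+/+ and 0.392 in Tarsl2-/- muscle, and Col6a1 over Col6a2 was 0.889 and 0.944, whereas the fold between the genotypes does not depend on it.

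**Figure D3:**
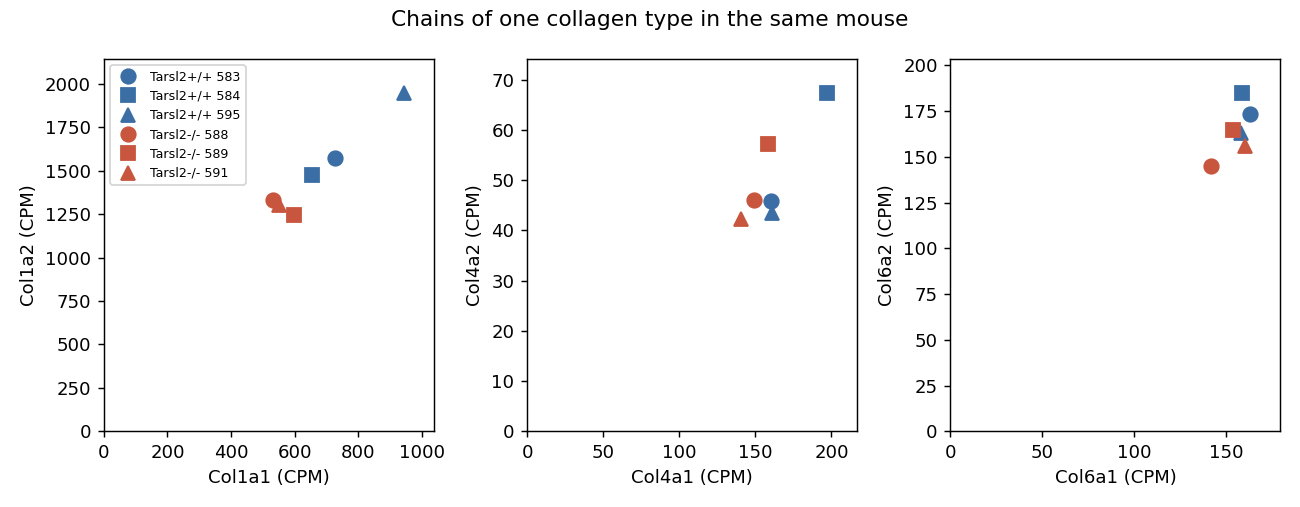
CPM of a pair of chains plotted against each other in the 6 mice, Col1a1 and Col1a2, Col4a1 and Col4a2, and Col6a1 and Col6a2, with axes from 0. Tarsl2+/+ mouse 595 is highest in both type I chains and Tarsl2+/+ mouse 584 in both type IV chains, while Col6a1 stays between 142 and 163 CPM and Col6a2 between 145 and 185.

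Of the 27 other collagens, 21 were tested, 15 had a fitted log2 fold change below 0 (71.4%, against 49.5% of all genes), and the median was -0.16. At an unadjusted p under 0.05, 6 were lower in Tarsl2-/- muscle (28.6%, against 10.2% of all genes). The 2 that were higher, Col6a6 and Col9a1, were 9.52%, near the 9.58% over all genes. Without overlap, 4 were lower (19%, against 11.9% of all genes) and 1 was higher (4.76%, against 12.6%). The sums were 995, 888 and 955 CPM in the Tarsl2+/+ mice and 852, 817 and 873 in the Tarsl2-/- mice, a difference of -10.4% with no overlap.

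Type VI collagen, whose mutations cause congenital muscular dystrophies, gave most of this sum. Col6a1 (chromosome 10, 76708792 to 76726168) was at 163, 159 and 158 CPM in the Tarsl2+/+ mice and 142, 154 and 160.1 in the Tarsl2-/- mice, a log2 fold change of -0.07 (95% interval -0.26 to 0.11, adjusted p = 0.678). Col6a2 (chromosome 10, 76595762 to 76623630) was at 173, 185 and 163 CPM against 145, 165 and 156, a log2 fold change of -0.16 (95% interval -0.36 to 0.03, adjusted p = 0.348). Col6a3 (chromosome 1, 90765923 to 90843971) was at 371, 293 and 369 CPM against 319.8, 256 and 298, a log2 fold change of -0.24 (95% interval -0.50 to 0.02, adjusted p = 0.289). The genotypes overlapped in all 3 main chains.

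Col6a6 (chromosome 9, 105687809 to 105828160), an alternative type VI chain in a cluster with Col6a5 and Col6a4, had its genotypes in the opposite order. It was at 19.2, 19.4 and 15.8 CPM in the Tarsl2+/+ mice and 21.7, 23.1 and 24.8 in the Tarsl2-/- mice, and no other tested collagen had all its Tarsl2-/- values above the Tarsl2+/+ values. Its log2 fold change was 0.36 ± 0.11 (SE, 95% interval 0.12 to 0.60, adjusted p = 0.105). The neighbouring Col6a5 had a log2 fold change of -0.16 (95% interval -0.78 to 0.45, adjusted p = 0.800).

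Types XV and XVIII, the multiplexins, bear heparan or chondroitin sulfate chains and sit at basement membranes. Col18a1 (chromosome 10, 77052178 to 77166548), whose end is cleaved to give endostatin, was at 21.4, 15.9 and 19.9 CPM in the Tarsl2+/+ mice and 14.1, 14.8 and 13.6 in the Tarsl2-/- mice. The genotypes did not overlap, and the log2 fold change was -0.43 ± 0.12 (SE, 95% interval -0.69 to -0.16, adjusted p = 0.0924), with an adjusted p of 0.0264 without Tarsl2+/+ mouse 584. Slc19a1, on the opposite strand, overlaps Col18a1, and the use of strand in the counting is not given in the sources used here. Col15a1 (chromosome 4, 47208161 to 47313167) was at 49.7, 49.5 and 38.5 CPM against 45.1, 47.0 and 40.001, with overlapping genotypes and a log2 fold change of -0.06 (95% interval -0.31 to 0.19, adjusted p = 0.816).

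Among the fibril-associated collagens, which coat or bridge fibrils, Col14a1 showed a log2 fold change of 0.06 (adjusted p = 0.826), Col12a1 of -0.31 (adjusted p = 0.363) and Col16a1 of -0.32 (adjusted p = 0.181), all with overlapping genotypes. Col22a1, a collagen of the junction between muscle and tendon, was at 7.06 to 11.9 CPM in the Tarsl2+/+ mice and 4.66 to 7.04 in the Tarsl2-/- mice. Its log2 fold change was -0.64 ± 0.21 (SE, adjusted p = 0.127), and it passed the threshold without Tarsl2+/+ mouse 584 (-0.83, adjusted p = 0.0398). Col9a1, a cartilage chain, had at most 1.25 CPM in any library, a log2 fold change of 1.17 (95% interval 0.02 to 2.31, adjusted p = 0.243) and overlapping genotypes. Col20a1 had a log2 fold change of 0.28 (95% interval -0.46 to 1.02).

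In the network-forming type VIII, a product of vessel walls among others, Col8a1 had a log2 fold change of -0.39 ± 0.14 (SE, adjusted p = 0.153) and Col8a2 of -0.05 (adjusted p = 0.935). Among the transmembrane collagens, Col13a1, found at the neuromuscular junction, showed a log2 fold change of -0.26 (adjusted p = 0.575), Col17a1 of 0.69 (adjusted p = 0.397) and Col23a1 of -0.09 (adjusted p = 0.938). Col7a1, the anchoring fibril collagen of skin, had a mean of 0.759 ± 0.132 CPM in Tarsl2+/+ muscle against 0.987 ± 0.325 (SD, n = 3 each), with overlapping genotypes. Among the minor types the genotypes did not overlap in 2 genes, Col26a1 with a log2 fold change of -0.59 ± 0.19 (SE, adjusted p = 0.117) and Col28a1 with -0.83 ± 0.34 (SE, adjusted p = 0.207).

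The genes that make, bind and remove collagen were counted in 7 lists. For comparison, 49.5% of all genes tested had a fitted log2 fold change below 0, and at an unadjusted p under 0.05 10.2% were lower and 9.58% higher. Over all genes, edgeR called 1.37% lower and 0.896% higher. Of 21 tested chaperones and modifying enzymes of procollagen, 0 were called lower and 1 higher, and their median log2 fold change was -0.06, with 13 below 0 and 5 lower and 2 higher at an unadjusted p under 0.05. The called gene was Ctage5 (also named Mia2), which helps procollagen leave the endoplasmic reticulum. It was at 25.4, 26.7 and 25.8 CPM in the Tarsl2+/+ mice and 31.6, 36.9 and 39.4 in the Tarsl2-/- mice, and it rose (log2 fold change 0.47 ± 0.10, SE, adjusted p = 0.0347). The call held in 2 of 6 fits with a library left out, those without Tarsl2+/+ mouse 584 and without Tarsl2-/- mouse 588, with adjusted p-values from 0.0299 to 0.143 over the 6. Serpinh1, the collagen-specific chaperone HSP47, was singled out after its values were seen. It was at 425, 447 and 469 CPM against 358, 321 and 358, a log2 fold change of -0.37 ± 0.09 (SE, adjusted p = 0.0607).

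All 13 tested genes of procollagen cleavage and crosslinking had a fitted log2 fold change below 0 (median -0.30), where 49.5% of all genes did. Of these 13, 4 were lower at an unadjusted p under 0.05 (10.2% of all genes), and edgeR called 0. Of the 15 proteoglycans and matricellular proteins that bind fibrils, 13 were below 0 (median -0.28), 6 at an unadjusted p under 0.05, and again 0 were called. The 10 tested partners of type IV collagen in the basement membrane had a median of -0.09, with 2 lower and 1 higher at an unadjusted p under 0.05 and 0 called. In the list of TGF-beta signalling, a known inducer of collagen genes, 0 of 15 were called (median -0.10, 3 lower at an unadjusted p under 0.05).

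Of 9 collagen receptors, 2 were called lower (1.37% of all genes), all 9 were below 0 (49.5% of all genes) and the median was -0.17. Itga1, the alpha 1 integrin chain that binds type IV collagen, was at 15.4, 14.8 and 14.5 CPM in the Tarsl2+/+ mice and 10.6, 10.9 and 10.53 in the Tarsl2-/- mice, and fell (log2 fold change -0.48 ± 0.10, SE, adjusted p = 0.0346). Lair1, an inhibitory collagen receptor of immune cells, was at 4.79, 4.51 and 4.46 CPM against 2.56, 2.55 and 2.23, and fell (log2 fold change -0.91 ± 0.18, SE, adjusted p = 0.0277). The spread within a genotype was small in both genes. With a library left out both calls held in 1 of 6 fits, that without Tarsl2+/+ mouse 584, and the adjusted p-values lay between 0.0462 and 0.140 for Itga1 and between 0.0410 and 0.114 for Lair1.

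Collagen breakdown was the list with the most calls, 3 lower of 10 tested, and a median of -0.50, with 6 lower and 1 higher at an unadjusted p under 0.05. Mmp13, a collagenase that cleaves fibrillar collagen and is made by bone and cartilage cells, was at 3.04, 2.23 and 4.30 CPM in the Tarsl2+/+ mice and 0.780, 0.187 and 0.777 in the Tarsl2-/- mice. It fell (log2 fold change -2.40 ± 0.41, SE, adjusted p = 0.0165), and its value in Tarsl2-/- mouse 589 is that of 3 counts. Without Tarsl2+/+ mouse 595 the log2 fold change was -2.13 (adjusted p = 0.0639), and the call was also lost without Tarsl2+/+ mouse 583. Ctsk, the collagen-degrading protease cathepsin K, was at 93.7, 74.3 and 101 CPM against 61.1, 55.1 and 63.4, and fell (log2 fold change -0.58 ± 0.11, SE, adjusted p = 0.0269). Timp2, an inhibitor of matrix metalloproteinases that also takes part in activating Mmp2, was at 309, 308 and 329 CPM against 226, 223 and 231, and fell (log2 fold change -0.48 ± 0.08, SE, adjusted p = 0.0175). With a library left out, both calls held only without Tarsl2+/+ mouse 584, and the adjusted p-values reached 0.114 for Ctsk and 0.0734 for Timp2. The other 7 tested genes of the list were not called. Among these, the inhibitor Timp4, chosen after its values were seen, had an unadjusted p under 0.05 in the opposite direction, at 48.8, 51.1 and 60.1 CPM in the Tarsl2+/+ mice and 61.6, 57.3 and 88.4 in the Tarsl2-/- mice (log2 fold change 0.37 ± 0.15, SE, adjusted p = 0.198).

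Markers of the cell types that a muscle sample can hold were measured beside the collagens. Summed over 12 genes, fibroblast markers overlapped between the genotypes, at 3756, 4125 and 4166 CPM in the Tarsl2+/+ mice and 3473, 3701 and 3929 in the Tarsl2-/- mice. This overlap came from Gsn, which held a large part of the sums. Without Gsn, left out after its values were seen, the sums do not overlap, but only by a narrow margin. Tarsl2+/+ mouse 583 then lies barely above Tarsl2-/- mouse 591. Gsn, chosen after its values were seen, was at 1035, 1140 and 1249 CPM against 1097, 1579 and 1228 (log2 fold change 0.19, adjusted p = 0.483). Of 11 tested, 9 were below 0 and 2 above, with a median log2 fold change of -0.20 (-0.12 without Tarsl2-/- mouse 589), and 0 were called. At an unadjusted p under 0.05, 4 were lower and 0 higher (10.2% and 9.58% of all genes). The genotypes did not overlap in 4 lower genes and 1 higher gene (11.9% and 12.6% of all genes). Pdgfra, a defining fibroblast gene, showed a log2 fold change of -0.07 (adjusted p = 0.714), and Lamp5 was at 0 counts in all libraries. The lowest log2 fold change of the list was that of Pi16, chosen after its values were seen (-0.54, adjusted p = 0.0726). Summed tendon genes did not overlap, at 191, 174 and 232 CPM against 154, 166 and 143, with 6 of 7 below 0 (median -0.41, or -0.22 without Tarsl2+/+ mouse 595) and 0 called. Scx and Tnmd had log2 fold changes of 0.03 and -0.07, Mkx of -0.29, Comp of -0.41, Cilp2 of -0.48 and Chad of -0.86. That of Thbs4, chosen after its values were seen, was -0.53 (adjusted p = 0.0529). At an unadjusted p under 0.05, 4 of the 7 were lower and 0 higher (10.2% and 9.58% of all genes). Thbs4 was at 97.3, 95.4 and 133 CPM against 71.3, 78.9 and 75.9, a large part of the tendon sums. It was the only 1 of the 7 genes without overlap (11.9% of all genes were lower without overlap), and without it the sums overlap.

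The bone genes Bglap, Bglap2, Ibsp and Sp7 set Tarsl2+/+ mouse 595 apart. The same mouse was highest in Col1a1, Col1a2, Col2a1, Col11a1 and Col11a2, but also in Col3a1, Col5a1 and Col5a2. Outside the fibrillar class it was highest in Col4a4, Col8a1, Col12a1, Col13a1 and Col22a1, among others not in Col4a1 or the main type VI chains Col6a1 and Col6a2. The sum over 9 of the 10 listed cartilage and bone genes found in the table was 25.9, 12.7 and 122 CPM in the Tarsl2+/+ mice and 7.57, 7.29 and 10.8 in the Tarsl2-/- mice. All 5 tested genes were below 0 (median -3.27) with 0 called, and the osteocalcin gene Bglap had 10.4, 3.61 and 67.5 CPM against 0.835, 0.125 and 3.59. Without Tarsl2+/+ mouse 595 the median was -1.91. In the cartilage genes Sox9 and Matn3, mouse 595 did not stand apart. Sox9 was at 4.03, 4.19 and 3.20 CPM against 3.06, 2.99 and 2.67 without overlap, with mouse 595 the lowest of the Tarsl2+/+ mice (log2 fold change -0.39, adjusted p = 0.300). Matn3 was at 2.39, 2.02 and 3.15 CPM against 2.39, 3.36 and 1.36 (log2 fold change -0.11, adjusted p = 0.896). Acan and Hapln1 were too low to be tested, at no more than 0.701 and 0.477 CPM, and Matn1 was at 0 counts in all libraries. Their part in the collagen values was not tested.

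In 3 other lists the summed levels did not overlap. Summed leukocyte genes were at 199 to 237 CPM in the Tarsl2+/+ mice and 145 to 167 in the Tarsl2-/- mice, with all 6 below 0 and 2 called lower, Adgre1 and Csf1r. Over all genes, 49.5% were below 0, 1.37% were called lower and 0.896% higher. Red cell genes were at 4740 to 10376 CPM against 4161 to 4529, with all 5 below 0 and 0 called. Muscle fibre genes were higher, at 58388 to 62313 CPM against 62842 to 74166, with 7 of 9 above 0 and 2 called higher, Ckm and Myh1. The summed levels of the lists for mural cells (368 to 458 against 395 to 568 CPM), endothelium (212 to 235 against 164 to 215, with Cdh5 called lower), Schwann cells (51.2 to 67.3 against 25.7 to 119), adipocytes (1197 to 1925 against 1264 to 3722) and proliferating cells (43.9 to 51.3 against 41.6 to 47.8) overlapped between the genotypes. All 7 endothelial genes were below 0 (49.5% of all genes), with a median log2 fold change of -0.15, and 2 were lower without overlap (11.9% of all genes). The log2 fold changes of the called genes in these lists were -0.56 for Adgre1, -0.53 for Csf1r, 0.49 for Ckm, 0.59 for Myh1 and -0.64 for Cdh5. Without Tarsl2+/+ mouse 583 none of the 5 passed the threshold (adjusted p = 0.142, 0.0787, 0.142, 0.0775 and 0.0508 in that order). Over the 6 fits with a library left out, the call held in 5 for Cdh5, 4 for Myh1, 3 for Csf1r and 1 each for Adgre1 and Ckm. No gene of the mural, Schwann, adipocyte or proliferating lists was called. The highest Schwann and adipocyte sums (119 and 3722 CPM) were those of Tarsl2-/- mouse 589. The part of these cell types in the collagen values was not tested.

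**Figure D4:**
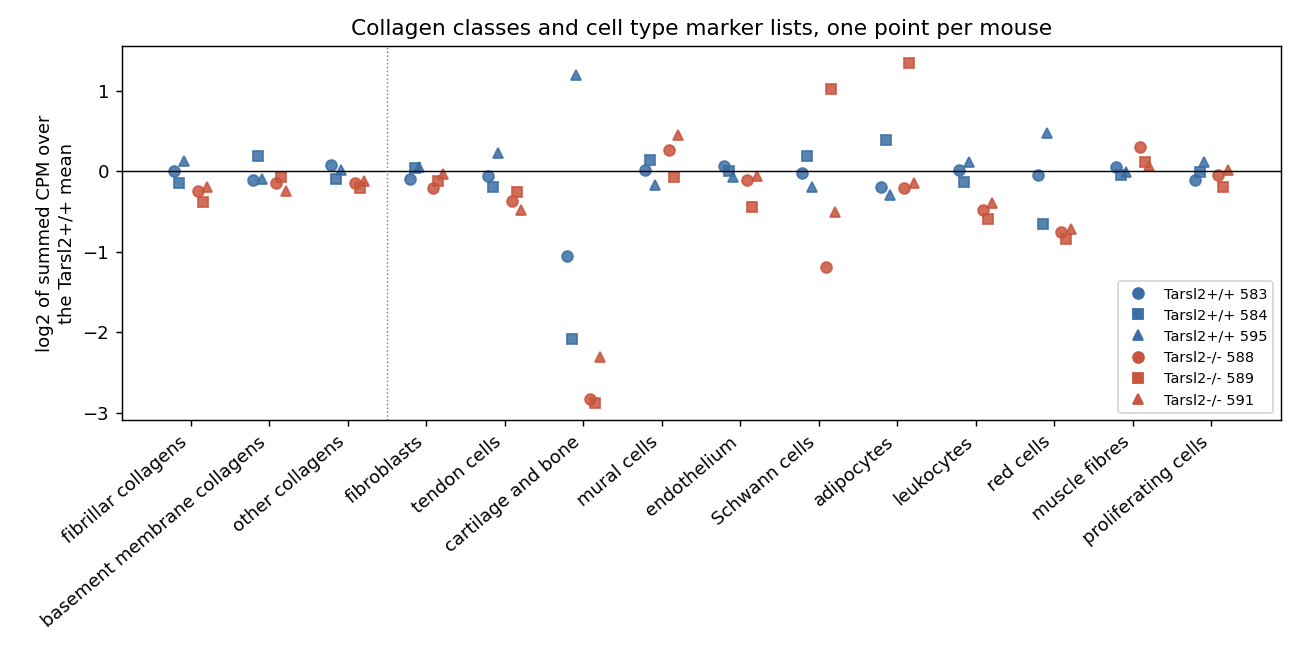
Summed CPM of each collagen class (left of the dotted line) and of 11 marker lists in each mouse, as log2 of the value over the mean of the 3 Tarsl2+/+ mice. Summed fibrillar and other collagens, tendon, cartilage and bone, leukocyte and red cell genes lie lower in every Tarsl2-/- mouse than in any Tarsl2+/+ mouse. Summed muscle fibre genes lie higher. The separation of the tendon sums rests on Thbs4. Tarsl2+/+ mouse 595 (blue triangle) stands apart in the cartilage and bone sum, through its bone genes.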

How the data were processed

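Muscle RNA of 3 Tarsl2+/+ and 3 Tarsl2-/- mice was sequenced by the authors, who mapped the reads to mm10 (GRCm38) with HISAT2 per the methods. The sample records name Bowtie 0.12.2 and mm8 instead. The authors deposited whole-number read counts for 53084 genes, 448 of them without a gene name, with no normalization. The counting tool and its use of strand are not given in the sources used here. Table coordinates of 43 of the 44 collagens matched GENCODE vM21 on GRCm38 (all but Col20a1), and 28 of the 44 overlap another gene of the table, so that reads could be counted on either. The length in the table was above that of the longest principal transcript for 41 collagens, equal to it for 2 and below it for 1 (Col20a1), so levels are also given per kilobase of that transcript.

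Genotypes were taken from the sample titles. The title of mouse 589 starts with KOT1, whereas those of mice 588 and 591 start with KO1. Mouse 589 was taken as Tarsl2-/-, and its 30 counts of Tarsl2 were the lowest of the 6 mice. The filterByExpr function of edgeR 4.0.16 in R 4.3.3 selected genes (minimum count 10, minimum total 15), and after TMM scaling they were compared by its quasi-likelihood test with genotype as the only term, with Benjamini-Hochberg adjustment over 15075 genes and a threshold of 0.05. The common biological coefficient of variation was 12.1%. Depth was 16176591 to 20123767 counts, and 3 counts (0.146 to 0.187 CPM) served as the floor, which covers counting error only. Libraries of 1 genotype differed by more than sampling noise (chi-square of 12.0 to 26.0 per gene). Mice of a genotype are the replicates.

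Values in every mouse are given for the chains of types I, III, IV (alpha 1 and 2), V, VI (alpha 1 to 3), XV and XVIII and for called genes, at most 4 per list by smallest p; other collagens in full were chosen after their values were seen. The members, the 7 collagen-related lists and the 11 marker lists were chosen with earlier results of these data known. Symbols were matched to those of the table (Ctage5 for Mia2, Ctgf for Ccn2), where Snorc was not found.

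In 3 simulations of these libraries (14874 to 14904 genes), edgeR called 79.0% to 82.4% of the genes given a log2 change of 1, and 7.23% to 10.4% of its calls were on unchanged genes. Smaller changes, such as the median of -0.37 over the fibrillar genes, were not simulated, so the share found at that size is not known. Alternatives were DESeq2 1.42.0, limma-voom (limma 3.58.1), RLE and upper quartile scaling, 2 filters on low counts, protein-coding genes only, a log2 fold change of at least 0.5, and each library left out. The principal transcript length, and the counts at an unadjusted p with a library left out, were added after seeing the data.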

Additional observations from a re-analysis of the deposited data

How the results depend on the processing

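No paired analysis was possible because no replicate number is shared by both genotypes. With DESeq2, 310 genes were higher and 409 lower in Tarsl2-/- muscle (135 and 207 with edgeR), with 3 collagens lower, all fibrillar, 2 chaperones lower and 5 breakdown genes lower. Without a filter on low counts, 25553 genes were tested, of which 611 were higher and 826 lower. Then 10 of the 44 collagens were lower, 6 fibrillar and 4 other. Also lower were 2 chaperones, 2 cleavage and crosslinking genes, 4 fibril-binding genes and 5 breakdown genes, and 1 breakdown gene was higher. There the prior degrees of freedom were infinite, so that the spread of a gene came from the trend alone, whereas their median was 7.23 with the filter. With upper quartile scaling 1 chaperone was lower. Over the fits that each left out 1 library, all genes ranged from 31 to 242 higher and from 50 to 383 lower, collagens from 0 to 4 lower, fibrillar and other collagens from 0 to 2 lower each, receptors from 0 to 2 lower, breakdown genes from 0 to 5 lower and chaperones from 0 to 1 higher. All collagen calls in these fits came without Tarsl2+/+ replicate 584, the fit with the most calls over all genes. There 4 of 37 collagens tested were lower, beside 383 of 15394 genes. The 5 breakdown genes were called in that fit too. The median of the fibrillar genes ranged from -0.44 to -0.24, that of the basement membrane genes from -0.25 to 0.045. Col5a3 changed sign with limma-voom (-0.00301) and upper quartile scaling (-0.0158). Log2 fold changes near 0 also changed sign when a library was left out, over the ranges -0.092 to 0.11 for Col5a3, -0.24 to 0.12 for Col4a2, -0.31 to 0.039 for Col6a5, -0.21 to 0.15 for Col8a2, -0.072 to 0.13 for Col14a1, -0.17 to 0.00215 for Col15a1, -0.082 to 0.50 for Col20a1 and -0.37 to 0.28 for Col23a1. The causes were not tested. Among the single collagens under the other alternatives, 241 of the values kept direction and side of the threshold, 13 passed it newly and 2 changed sign. The ratios of chains kept their direction in every fit. Tarsl2 stayed between -3.92 and -3.69 without any 1 library.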
